A study of Mus musculus with 8 samples.

Results

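A set of 9 genes of mouse embryonic stem cells was followed across the treatments of this study: Spink1, Pga5, Trh, Car4, Car14, S100g, Aqp8, Clec3b and Trpm1. They were chosen from among the largest changes in these same data, so every ratio to another group given here for them describes the choice and carries no test. They are 9 of the 61535 loci in the deposited tables, of which 50060 carry a gene name, and each symbol was found at 1 locus. The set was proposed as treatment-sensitive secretory genes. By what their proteins are known to do that name covers only some of them, since Spink1, Pga5, Trh and Clec3b encode secreted proteins, Car4, Car14, Aqp8 and Trpm1 encode membrane proteins, and S100g encodes a protein of the cytosol.

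RNA was sequenced from 8 libraries of embryonic stem cells, 2 libraries in each of 4 groups. The cells came from blastocysts of C57BL/6J mice, were grown on mouse embryonic fibroblast feeder cells, and in every group, untreated cells included, carried the genotype Mll1fl/fl; Cre-ER TM, that is a floxed Mll1 gene (Kmt2a, which encodes a histone H3 lysine 4 methyltransferase) and a Cre recombinase that tamoxifen activates. MM401 cells received MM401, an inhibitor of MLL1, at 100 µM for 5 days. Mll1-deleted cells received 4-hydroxytamoxifen at 5 µM for 5 days. The 2i cells received PD03259010, labelled as such and used as a MEK inhibitor, at 1 µM for 5 days, together with CHIR99021, which inhibits GSK3, at 3 µM. Untreated cells received none of these. The MM401 and Mll1-deleted cultures were in LIF and serum and the 2i cultures in LIF and serum replacement, so an effect of the medium and one of the 2i inhibitors cannot be told apart. For untreated cells the labels do not say which medium was used, no vehicle group was analysed here, and all comparisons with untreated cells share the same untreated libraries.

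The tables hold 1 value per group, in which the authors had already combined the 2 libraries, so no spread between replicates can be given. Levels are FPKM (fragments scaled to transcript length and to mapped fragments), and square brackets hold the authors' interval for that group. A locus was tested where either group reached an FPKM of 1, and it is called higher or lower where log2 of the ratio of FPKM + 1 is at least 1 in size, a 2-fold change on that scale, which understates the change of low loci. Total estimated counts were 76501619 in MM401, 88203834 in Mll1-deleted, 90728747 in 2i and 84503307 in untreated cells. The distance from the level to the edge of its interval, as a share of the level, was between 18.2% for Trh in 2i cells and 198% for S100g in MM401 cells, so low levels are read with care. All 9 embryonic stem cell markers had an FPKM of at least 1 in every group. In MM401 cells 3 of the 9 were lower, where 6.08% of all loci tested were lower, and the markers had a median log2 ratio of -0.50. The 3 were Pou5f1, Tdgf1 and Utf1, with 294, 114 and 103 FPKM in MM401 and 874, 337 and 332 in untreated cells. The summed FPKM of the 9 markers was 10163, 11554, 8632 and 9758 in MM401, Mll1-deleted, 2i and untreated cells. Most of it came from the locus of Dppa5a, without which it was 1335, 3171, 2898 and 2538. Kmt2a had an FPKM of 14.6, 11.8, 8.72 and 15.5 in the same groups, a value over the whole gene that does not measure the loss of a floxed exon.

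Several of these genes are best known from organs that make or move fluids. Trypsin inhibitors of the SPINK family protect the pancreas from its own enzymes, pepsinogens are stored by chief cells of the stomach, thyrotropin-releasing hormone drives the pituitary from the hypothalamus, and carbonic anhydrases, aquaporins and small calcium-binding proteins serve the transport of ions and water across epithelia. Embryonic stem cells in serum are a mixed population, and kinase inhibition in 2i is known to hold them in a more uniform naive state.

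The start regions of 5 of the genes are printed because they differ widely in their content of CG dinucleotides. Each is the RefSeq promoter window of 300 bases on the gene's own strand, 250 before and 50 after the annotated start, in build GRCm38.p6, 5′ to 3′, and capitals mark CG dinucleotides. The windows are chr6:92244601-92244900 on the minus strand for Trh, chr11:84957504-84957803 on the plus strand for Car4, chr3:95904636-95904935 on the minus strand for Car14, chr7:123462044-123462343 on the plus strand for Aqp8 and chrX:162964550-162964849 on the minus strand for S100g.
Trh: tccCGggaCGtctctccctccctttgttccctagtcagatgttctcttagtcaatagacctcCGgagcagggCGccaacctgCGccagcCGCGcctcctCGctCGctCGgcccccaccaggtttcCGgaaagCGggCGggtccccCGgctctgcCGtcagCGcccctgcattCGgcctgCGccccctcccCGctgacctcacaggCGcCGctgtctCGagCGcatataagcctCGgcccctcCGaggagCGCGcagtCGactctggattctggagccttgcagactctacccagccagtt
Car4: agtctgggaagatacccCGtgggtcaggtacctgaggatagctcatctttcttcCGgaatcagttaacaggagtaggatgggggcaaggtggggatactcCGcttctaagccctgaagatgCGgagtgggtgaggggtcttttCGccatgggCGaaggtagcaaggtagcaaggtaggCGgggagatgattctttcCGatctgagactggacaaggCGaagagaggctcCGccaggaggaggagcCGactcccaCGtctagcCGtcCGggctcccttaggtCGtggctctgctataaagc
Car14: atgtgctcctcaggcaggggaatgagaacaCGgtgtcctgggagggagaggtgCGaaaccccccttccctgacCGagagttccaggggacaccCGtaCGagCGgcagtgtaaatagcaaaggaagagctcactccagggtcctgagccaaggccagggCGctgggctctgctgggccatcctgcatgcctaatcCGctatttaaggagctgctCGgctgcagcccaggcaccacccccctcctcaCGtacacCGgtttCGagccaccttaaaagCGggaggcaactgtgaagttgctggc
Aqp8: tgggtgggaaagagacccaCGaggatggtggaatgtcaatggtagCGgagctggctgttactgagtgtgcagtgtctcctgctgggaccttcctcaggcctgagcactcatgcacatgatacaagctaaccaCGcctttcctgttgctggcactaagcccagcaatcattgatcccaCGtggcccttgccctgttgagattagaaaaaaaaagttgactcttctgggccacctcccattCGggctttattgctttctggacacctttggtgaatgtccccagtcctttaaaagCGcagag
S100g: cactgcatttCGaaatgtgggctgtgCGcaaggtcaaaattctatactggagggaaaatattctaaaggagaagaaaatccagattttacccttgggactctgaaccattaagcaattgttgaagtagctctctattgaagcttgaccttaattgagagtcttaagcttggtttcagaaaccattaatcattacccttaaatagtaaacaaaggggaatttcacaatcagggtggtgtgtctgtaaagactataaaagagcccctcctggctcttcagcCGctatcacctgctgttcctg

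The window of Trh held 28 CG dinucleotides and was 67% G or C, against a median of 7 and of 52.7% over all 32851 RefSeq windows of this length, and 85.8% of windows held fewer. Car4 had 15 and Car14 13, more than 65.4% and 62.1% of windows. Aqp8 had 6 and S100g 3, with 43.6% and 23.3% of windows holding fewer. The window at the upstream start of Trpm1, a gene on the plus strand, held 2, and a window at a start further downstream in the same gene held 6. The plot of CpG content places the 7 windows of the 6 genes that matched a RefSeq entry on the range of all promoters. The letters TATAA, searched on the gene's strand and starting from -40 to -20, stood at -26 in Trh and in no other of these windows, against 3.52% of all windows, and copies elsewhere in a window were not counted. The letters CTTTGA, the core of the motif bound by TCF and LEF factors, searched on both strands over the whole window, stood once in each Trpm1 window, at -103 and -68 on the minus strand, and in none of the others, against 16% of all windows. These are matches of letters only.

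**Figure D1:**
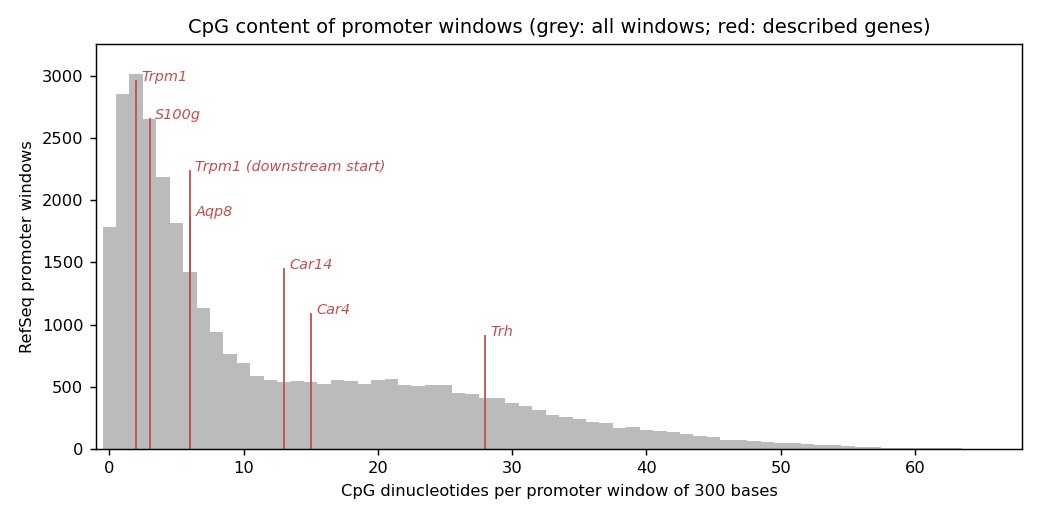
Number of CG dinucleotides per promoter window of 300 bases (horizontal axis) for all 32851 RefSeq windows (grey bars, number of windows) and for the 7 windows of 6 described genes (red lines, whose height carries no value). The windows run from 2 CG dinucleotides at the upstream start of Trpm1 to 28 at Trh.

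The 9 genes fell into a few patterns of level, as the plot of FPKM by group shows. Spink1, Car4 and Car14 were lower in every treated group than in untreated cells, Pga5 and Trh were lower in MM401 and Mll1-deleted cells but past the 2-fold rule in neither direction in 2i cells, and S100g, Aqp8, Clec3b and Trpm1 were highest in 2i cells.

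**Figure D2:**
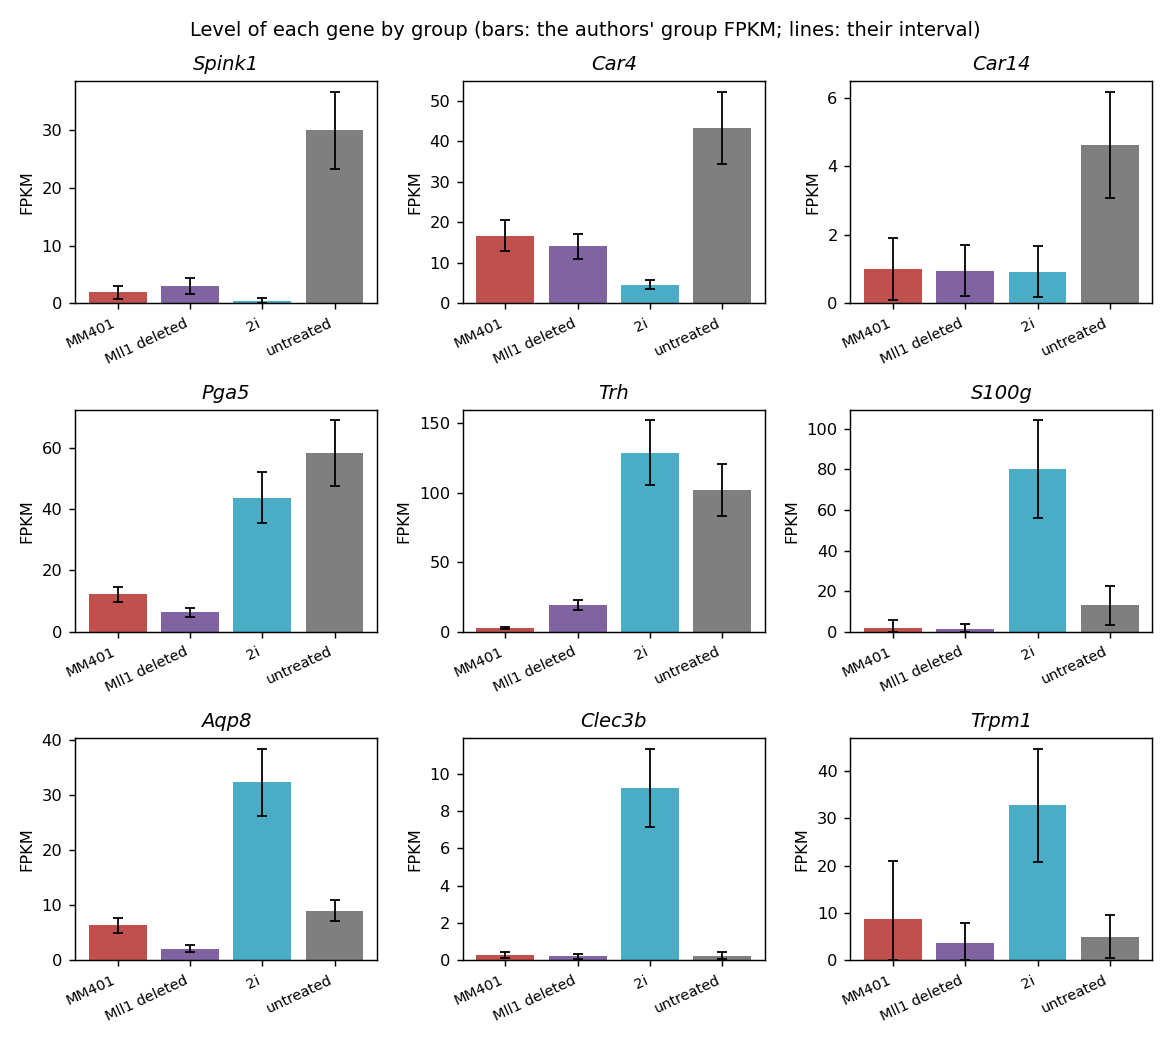
FPKM of each of the 9 genes (vertical axes, each with its own scale from 0) in MM401, Mll1-deleted, 2i and untreated cells. Bars are the authors' group value and lines their interval. Spink1, Car4 and Car14 stand highest in untreated cells, Trh and Pga5 stand high in 2i and untreated cells, and S100g, Aqp8, Clec3b and Trpm1 stand highest in 2i cells.

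Spink1 encodes a secreted Kazal-type inhibitor that blocks trypsin in the pancreas and is transcribed from the minus strand of chromosome 18 (43728082 to 43737557, mm10). Its FPKM was 1.91 [0.806 to 3.01] in MM401 cells, 3.02 [1.65 to 4.39] in Mll1-deleted cells, 0.430 [0 to 0.980] in 2i cells and 29.9 [23.2 to 36.6] in untreated cells. The untreated cells stood alone, with an interval above those of all 3 treated groups, while the intervals of MM401 and Mll1-deleted cells overlapped, as did those of MM401 and 2i cells. The level was 15.7-fold lower in MM401 cells, 9.90-fold lower in Mll1-deleted cells and 69.6-fold lower in 2i cells, or log2 ratios of -3.41, -2.94 and -4.43. The estimated counts behind these levels were 42.7, 67.6, 9.63 and 670 in MM401, Mll1-deleted, 2i and untreated cells. Counted from the lowest ratio, Spink1 was number 37 of 16768 loci in MM401 cells, number 75 of 16235 in Mll1-deleted cells and number 14 of 16039 in 2i cells.

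Car4 encodes a carbonic anhydrase held at the outer cell surface by a lipid anchor, which interconverts carbon dioxide and bicarbonate (chromosome 11, 84957786 to 84966044, plus strand). Its FPKM was 16.7 [12.9 to 20.5] in MM401 cells, 14.1 [10.9 to 17.2] in Mll1-deleted cells, 4.61 [3.45 to 5.77] in 2i cells and 43.3 [34.4 to 52.3] in untreated cells. The MM401 and Mll1-deleted cells lay together between the other groups, and the 2i interval lay below both of theirs. The log2 ratios to untreated cells were -1.32, -1.56 and -2.98 in MM401, Mll1-deleted and 2i cells, and the 2i level was 9.40-fold lower. This order differed from that of Trh and Pga5, whose 2i level was close to the untreated one.

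Car14, a carbonic anhydrase that spans the membrane (chromosome 3, 95897768 to 95904691, minus strand), was low everywhere. Its FPKM was 1.02 [0.113 to 1.92] in MM401 cells, 0.960 [0.224 to 1.70] in Mll1-deleted cells, 0.921 [0.179 to 1.66] in 2i cells and 4.63 [3.08 to 6.18] in untreated cells. The 3 treated groups overlapped one another and all lay below the untreated interval. The log2 ratios were -1.48, -1.52 and -1.55, and estimated counts were 6.40-fold, 5.72-fold and 5.47-fold lower in MM401, Mll1-deleted and 2i cells, a larger drop than in FPKM for each. The end of Car14 overlaps that of Aph1a on the other strand, and the labels do not say whether reads were assigned by strand. Aph1a had an FPKM of 2.15, 3.19, 4.36 and 2.95 in MM401, Mll1-deleted, 2i and untreated cells and passed the 2-fold rule in none.

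Trh encodes the precursor of thyrotropin-releasing hormone and lies on chromosome 6 (92242061 to 92244650, minus strand), behind the CpG-rich window printed above. The deposited locus runs further upstream, to 92248272, and joins 2 transcription start groups, and the level sums over them. The FPKM of Trh was 2.56 [1.89 to 3.24] in MM401 cells, 19.2 [15.5 to 22.9] in Mll1-deleted cells, 129 [105 to 152] in 2i cells and 102 [83.3 to 121] in untreated cells. The 2i and untreated intervals overlapped, the Mll1-deleted interval lay below both, and the MM401 interval lay below all others. The level was 39.8-fold lower in MM401 cells and 5.31-fold lower in Mll1-deleted cells, or log2 ratios of -4.85 and -2.35, and the log2 ratio in 2i cells was 0.33. Trh was number 8 of 16768 loci from the lowest ratio in MM401 cells. Among loci with an FPKM of at least 1, it exceeded 17.3% in MM401 cells, 58.4% in Mll1-deleted cells, 92.2% in 2i cells and 91.6% in untreated cells. Set against Mll1-deleted cells directly, MM401 cells had a level 7.49-fold lower, with separate intervals.

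Pga5 encodes a pepsinogen, the inactive precursor of the stomach protease pepsin (chromosome 19, 10668956 to 10678071, minus strand). Its FPKM was 12.2 [9.76 to 14.7] in MM401 cells, 6.36 [4.97 to 7.75] in Mll1-deleted cells, 43.7 [35.5 to 51.9] in 2i cells and 58.1 [47.3 to 68.9] in untreated cells. As with Trh, the 2i and untreated intervals overlapped and those of MM401 and Mll1-deleted cells lay below them. Unlike Trh, the lowest level was in Mll1-deleted cells, whose interval lay below that of MM401 cells. The log2 ratios to untreated cells were -2.16, -3.01 and -0.40 in MM401, Mll1-deleted and 2i cells.

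S100g encodes a small calcium-binding protein of the cytosol that vitamin D induces in the gut (chromosome X, 162961992 to 162964599, minus strand). Its FPKM was 2.01 [0 to 5.99] in MM401 cells, 1.56 [0 to 4.06] in Mll1-deleted cells, 80.2 [56.0 to 104] in 2i cells and 13 [3.41 to 22.7] in untreated cells. The 2i interval stood above all others, but the intervals of MM401 and Mll1-deleted cells overlapped the untreated one. The log2 ratios were -2.22, -2.46 and 2.53, and the 2i level was 6.15-fold higher than the untreated one and 51.5-fold higher than the Mll1-deleted one. S100g lies inside Ctps2, a gene of the other strand, which had an FPKM of 45.5, 55.8, 43.6 and 49.4 in MM401, Mll1-deleted, 2i and untreated cells and passed the rule in no comparison with untreated cells.

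Aqp8 encodes a water channel (chromosome 7, 123462291 to 123468004, plus strand). Its FPKM was 6.35 [4.96 to 7.73] in MM401 cells, 2.09 [1.47 to 2.71] in Mll1-deleted cells, 32.3 [26.2 to 38.4] in 2i cells and 8.99 [7.13 to 10.8] in untreated cells. The 2i interval was above and the Mll1-deleted interval below all others, while MM401 and untreated cells overlapped. The log2 ratios were -0.44, -1.69 and 1.74 in MM401, Mll1-deleted and 2i cells. Set against Mll1-deleted cells, MM401 cells had a log2 ratio of 1.25 with separate intervals, the opposite direction to Trh.

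Clec3b encodes tetranectin, a secreted lectin that binds plasminogen (chromosome 9, 123150946 to 123157432, plus strand). Its FPKM was 0.282 [0.114 to 0.450] in MM401 cells, 0.212 [0.0627 to 0.362] in Mll1-deleted cells, 9.24 [7.14 to 11.3] in 2i cells and 0.253 [0.0524 to 0.454] in untreated cells. Only 2i cells passed the filter of 1, and the other 3 groups overlapped one another. The 2i level was 36.5-fold higher than the untreated one in FPKM and 29.5-fold higher in estimated counts, with 814 and 27.6 estimated counts in 2i and untreated cells.

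Trpm1 encodes a cation channel known from retinal bipolar cells and melanocytes (chromosome 7, 64153835 to 64269775, plus strand). Its FPKM was 8.74 [0 to 21.0] in MM401 cells, 3.73 [0 to 7.79] in Mll1-deleted cells, 32.7 [20.7 to 44.8] in 2i cells and 5.02 [0.562 to 9.49] in untreated cells. The 2i interval lay above those of Mll1-deleted and untreated cells and just overlapped that of MM401 cells. The log2 ratios were 0.69, -0.35 and 2.49. The deposited locus joins 12 transcription start groups, and the level sums over them. The microRNA gene Mir211 in an intron of Trpm1 was listed at 0 in MM401, Mll1-deleted and untreated cells and had 1.30 estimated counts in 2i cells.

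**Figure D3:**
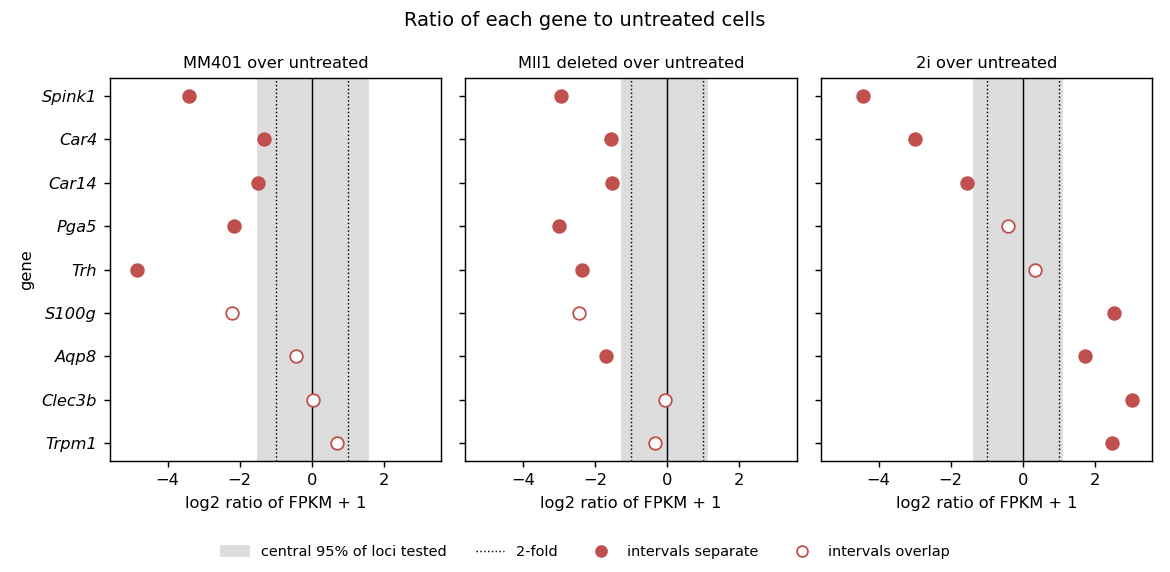
Log2 ratio of FPKM + 1 (horizontal axis) of each of the 9 genes in MM401, Mll1-deleted and 2i cells over untreated cells. Filled points have separate intervals, open points overlapping ones, dotted lines mark 2-fold and the grey band holds the central 95% of loci tested. Trh at -4.85 in MM401 cells and Spink1 at -4.43 in 2i cells lie farthest left, and Clec3b at 3.03 in 2i cells lies farthest right. Clec3b was below the filter in MM401 and Mll1-deleted cells and is drawn there for completeness.

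Counted together against untreated cells, 0 of 8 tested genes were higher in MM401 cells and 6 were lower, 5 of those with separate intervals, where 7.03% of all loci tested were higher and 6.08% lower. In Mll1-deleted cells 0 of 8 were higher and 7 lower, 6 with separate intervals, where 3.02% of loci were higher and 3.66% lower. In 2i cells 4 of 9 were higher and 3 lower, all 7 with separate intervals, where 2.92% of loci were higher and 4.16% lower. Clec3b was below the filter in the first 2 comparisons. The median log2 ratio of the tested genes was -1.82, -2.02 and 0.33 in MM401, Mll1-deleted and 2i cells, and that of all loci tested was -0.04, 0.05 and 0.08. Because the genes were chosen among the largest changes, these counts cannot be read against the background shares.

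Between the treated groups, the fewest of the 9 genes passed the rule for MM401 over Mll1-deleted cells. Of 8 genes tested, 2 were higher in MM401 than in Mll1-deleted cells, Aqp8 with separate intervals and Trpm1 at a log2 ratio of 1.04 with overlapping ones, and 1 was lower, Trh at -2.50, where 5.51% of loci were higher and 5.03% lower. Pga5 stood at 0.84, inside the 2-fold rule with separate intervals. Against 2i cells, MM401 cells were higher in 2 of 9 genes, Car4 at 1.66 and Spink1 at 1.02, and lower in 6, with overlapping intervals for Spink1 and Trpm1, where 10.4% of loci were higher and 11.1% lower. Mll1-deleted cells were higher than 2i cells in the same 2 genes, at 1.42 for Car4 and 1.49 for Spink1, and lower in 6 of 8, where 5.96% of loci were higher and 5.18% lower. The log2 ratio largest in size among all 6 comparisons was -5.18 for Trh in MM401 over 2i cells, a level 50.2-fold lower in MM401 cells. In these comparisons the median over loci expressed in both groups was shifted by -0.12 for MM401 over Mll1-deleted cells and -0.13 for MM401 over 2i cells. With it set to 0, the split of higher to lower loci was 1169 to 612 in place of 919 to 839 in the first, and 2269 to 1341 in place of 1739 to 1857 in the second, and the counts of the 9 genes did not change.

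Relatives of these genes were then read from lists of families and pathways, with the 9 genes left out. Beside the counts of these lists and of the markers below stand the shares of all loci tested against untreated cells. These were 7.03% higher and 6.08% lower in MM401 cells, 3.02% and 3.66% in Mll1-deleted cells, and 2.92% and 4.16% in 2i cells. Among SPINK inhibitors, none of the 9 other loci passed the 2-fold rule, and Spink2, the most abundant by its mean over the 4 groups, had an FPKM of 1.35, 0.730, 0.665 and 0.864 in MM401, Mll1-deleted, 2i and untreated cells. Among trypsins and other pancreatic proteases, 1 of 4 tested loci was lower in MM401 cells, and 0 of 3 passed in Mll1-deleted and in 2i cells. The lower locus joins Ctrl, a chymotrypsin-like protease, with the proteasome gene Psmb10 (7.86 and 24.1 FPKM in MM401 and untreated cells, log2 ratio -1.50). Every trypsin gene of the list was below the filter in all groups, the highest at 0.0761 FPKM in untreated cells. The median log2 ratio of that list was -0.29, 0.08 and 0.05. Among aspartic proteases, relatives of Pga5, 0 of 4 passed in MM401 cells, 0 of 4 in Mll1-deleted cells and 1 of 5 was higher in 2i cells, Ren1 at an FPKM of 1.76 against 0.108 in untreated cells with overlapping intervals. Their medians were -0.08, 0.21 and 0.52, and the most abundant locus, which joins the lysosomal protease gene Ctsd with its neighbours, had an FPKM of 633, 363, 553 and 327 in MM401, Mll1-deleted, 2i and untreated cells.

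The enzymes that make and break the Trh peptide were mostly within the 2-fold rule. Of 6 other tested genes of TRH production and reception, 1 was lower in MM401 cells, the prohormone convertase Pcsk1 (0.251 and 1.55 FPKM in MM401 and untreated cells, overlapping intervals), and none passed in Mll1-deleted or 2i cells, with medians of 0.34, 0.14 and 0.26. Pgpep1, the most abundant by its mean over the 4 groups, a peptidase that removes the blocked first residue of such peptides, had an FPKM of 95.4, 109, 83.9 and 66.1 in MM401, Mll1-deleted, 2i and untreated cells. The carboxypeptidase Cpe had 100.4, 60.3, 64.2 and 72.1 and the amidating enzyme Pam 23.9, 19.4, 20.1 and 17.6 in the same groups. The receptor Trhr was listed at 0 in all treated groups and had an FPKM of 0.0111 in untreated cells.

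The other carbonic anhydrases were mostly within the 2-fold rule where Car4 and Car14 were lower. Of 10 tested in MM401 cells 1 was higher, Car12 (4.23 and 1.61 FPKM in MM401 and untreated cells), of 10 in Mll1-deleted cells 1 was lower, and of 9 in 2i cells 1 was lower, in both cases Car7 (0.922 in Mll1-deleted, 0.547 in 2i and 3.10 FPKM in untreated cells, overlapping intervals). In MM401 cells Car7 had 1.07 FPKM, just inside the 2-fold rule. The medians were 0.28, 0.13 and 0.29 in MM401, Mll1-deleted and 2i cells, and the locus with the highest mean over the 4 groups, which joins Car15 with neighbours, had an FPKM of 21.8, 29.4, 32.9 and 23.8 in MM401, Mll1-deleted, 2i and untreated cells. Of the bicarbonate and proton transporters that work beside them, 1 of 9 was higher in MM401 cells, Slc4a11 (25.8 and 8.81 FPKM in MM401 and untreated cells), 0 of 9 passed in Mll1-deleted cells, and in 2i cells 2 of 8 were higher and 1 lower, with medians of 0.42, 0.35 and 0.44.

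Several S100 relatives were lower in Mll1-deleted cells, as S100g was with overlapping intervals. Of 9 tested besides S100g, 1 was lower in MM401 cells and 5 in Mll1-deleted cells, none higher. Of 10 in 2i cells 2 were lower. Medians were -0.46, -1.02 and 0.33 in MM401, Mll1-deleted and 2i cells, where 6.08%, 3.66% and 4.16% of all loci tested were lower. Among the 5, S100a7a and S100a8 were near the floor, with 0.128 and 0.238 FPKM in Mll1-deleted and 1.30 and 1.72 in untreated cells. The locus joining S100a3 and S100a4 had an FPKM of 17.9, 14, 74.5 and 64.1 in MM401, Mll1-deleted, 2i and untreated cells. S100a6, the most abundant, had an FPKM of 376, 318, 740 and 699 in the same groups, a log2 ratio of -1.13 in Mll1-deleted cells with separate intervals. Unlike S100g, neither was past the 2-fold rule in 2i cells. Of vitamin D and calcium transport genes, 1 of 6 was higher in MM401 cells, Calb2 (3.30 and 1.04 FPKM in MM401 and untreated cells), and 0 of 5 passed in Mll1-deleted and in 2i cells, with medians of 0.53, 0.32 and 0.41.

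Of the other aquaporins, Aqp3 alone passed, and it was higher in MM401 as well as 2i cells (70.4, 30.6, 51.0 and 22.0 FPKM in MM401, Mll1-deleted, 2i and untreated cells), 1 of 4 tested, 0 of 3 and 1 of 4 in MM401, Mll1-deleted and 2i cells with medians of 0.34, 0.35 and 0.36. Of the plasminogen system, to which the partner of the Clec3b protein belongs, 2 of 7 were higher and 1 lower in MM401 cells, 1 of 7 was lower in Mll1-deleted cells and 2 of 7 were lower in 2i cells, with medians of -0.05, -0.61 and -0.02. The plasminogen activator gene Plau had an FPKM of 11.4, 8.17, 6.78 and 17.2 in MM401, Mll1-deleted, 2i and untreated cells. None of the other TRPM channels passed, with 6, 5 and 5 tested in MM401, Mll1-deleted and 2i cells and medians of 0.45, 0.21 and 0.03. Trpm7, with the highest mean over the 4 groups, had an FPKM of 23.1, 21.2, 15.1 and 23.2 in MM401, Mll1-deleted, 2i and untreated cells.

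**Figure D4:**
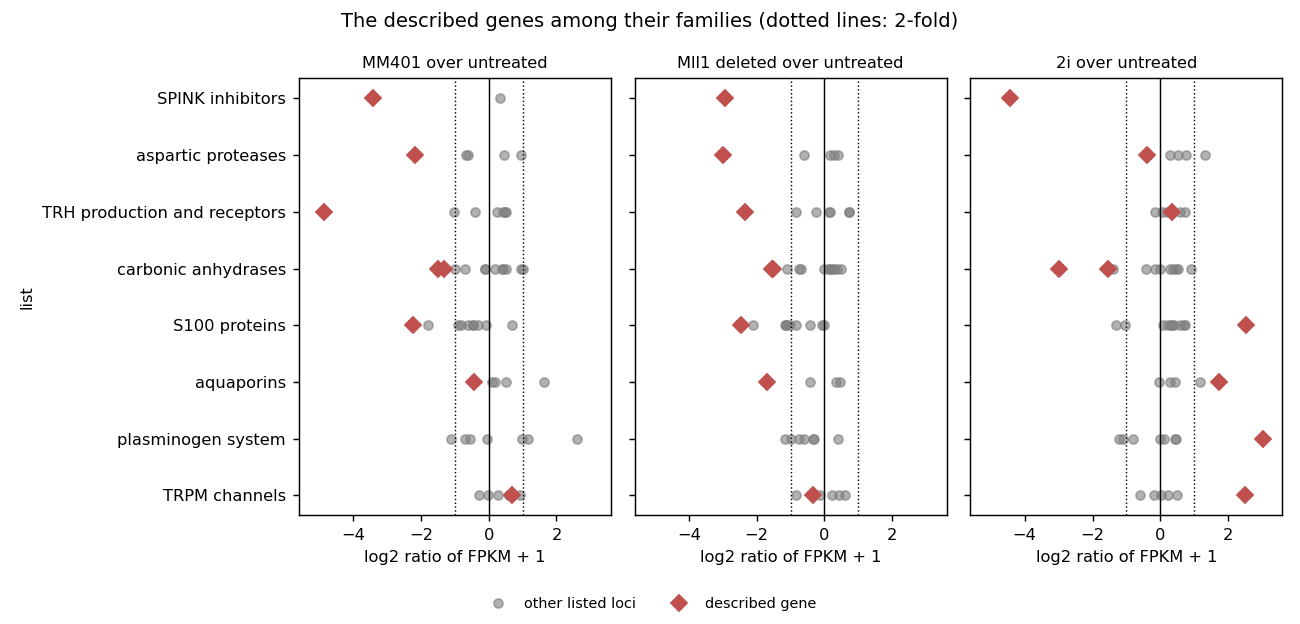
Log2 ratio of FPKM + 1 (horizontal axis) over untreated cells for tested loci of 8 lists (rows) in MM401, Mll1-deleted and 2i cells. Red diamonds are the described genes and grey points the other loci of the list. Most grey points lie inside the dotted 2-fold lines, and Aqp3 at 1.63 in MM401 cells is among those beyond them.

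Markers of other cell types were set beside the genes, because in pooled RNA fewer cells of a type and less RNA per cell cannot be told apart. Feeder fibroblasts were in every culture, the labels do not say whether they were removed before RNA was isolated, and all 12 of their markers had an FPKM of at least 1 in every group, with summed FPKM of 1452, 676, 3143 and 1025 in MM401, Mll1-deleted, 2i and untreated cells. In 2i cells 6 of the 12 were higher and 0 lower, with a median log2 ratio of 1.00, in MM401 cells 2 were higher, and in Mll1-deleted cells 1 was lower, with medians of 0.35 and -0.54. The collagen gene Col1a1 had an FPKM of 142, 55.3, 402 and 79.5 in MM401, Mll1-deleted, 2i and untreated cells. In 2i cells these markers moved with Clec3b, Trpm1, Aqp8 and S100g. The log2 ratios of these genes, 3.03, 2.49, 1.74 and 2.53, stand beside 2.32 for Col1a1, the largest of the 12. In MM401 and Mll1-deleted cells the marker medians of 0.35 and -0.54 stand beside -2.22 and -2.46 for S100g. Aqp8 had -0.44 and -1.69 there, Trpm1 had 0.69 and -0.35, and Clec3b was below the filter. The part of the markers in those levels was not tested.

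Markers of visceral and primitive endoderm, cell types that arise beside embryonic stem cells, were mostly lower in MM401 and Mll1-deleted cells and mostly within the 2-fold rule in 2i cells. Their 12 loci summed to an FPKM of 116, 112, 279 and 305 in MM401, Mll1-deleted, 2i and untreated cells. Without Srgn, the most abundant, the sums were 71.6, 75.8, 131 and 154 in the same groups. Of the 12, 7, 9 and 3 were lower and 0, 0 and 1 higher in MM401, Mll1-deleted and 2i cells, with medians of -1.47, -1.34 and -0.71. Apoa1, an apolipoprotein, had an FPKM of 0.263, 0.200, 0.710 and 7.44 in MM401, Mll1-deleted, 2i and untreated cells. For 1 of the 12, Cubn, the deposited values of 9.79 in 2i cells and 18.3 in untreated cells lay outside their own intervals of 0 to 1.99 and 0 to 3.49. Cubn is among the 7 lower in MM401 cells, with 2.89 FPKM there, a call that rests on that untreated value. Most of these markers moved with Spink1, Car4, Car14, Trh, Pga5 and S100g in MM401 and Mll1-deleted cells. Their part in those levels was not tested. In MM401 cells Gata4, Gata6, Sox17, Foxa2 and Dab2 passed in neither direction. They had 10.5, 4.99, 10.5, 4.17 and 34.5 FPKM in MM401 and 17.6, 10.8, 12.6, 6.08 and 57.8 in untreated cells. In Mll1-deleted cells Dab2, Amn and Cubn passed in neither direction. In 2i cells, where Spink1 and Car4 had their lowest levels, the 12 markers were split. The 3 lower ones were Apoa1, Apob and Ttr, with 0.710, 0.304 and 1.05 FPKM in 2i and 7.44, 3.55 and 3.76 in untreated cells. Sox17 was higher, with 31.0 and 12.6 FPKM in 2i and untreated cells, and the other 8 passed in neither direction.

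Among markers of the organs these genes are best known from, those of pancreas and intestine were at low levels. Some gastric and melanocyte markers stood higher. Pancreatic acinar markers summed to an FPKM of 3.99, 5.28, 4.52 and 4.32 over 10 loci in MM401, Mll1-deleted, 2i and untreated cells, none past the 2-fold rule. Intestinal markers summed to 2.72, 2.55, 1.81 and 2.73 over 8 loci, none past it either. Gastric markers summed to 21.9, 12.5, 11.9 and 14.6 over 9 loci in the same groups. Of those tested, 2 of 4 were higher in MM401 cells, 1 of 4 was higher and 2 lower in Mll1-deleted cells, and 1 of 3 was lower in 2i cells. Pgc, another pepsinogen and the marker with the highest mean over the 4 groups, had an FPKM of 3.85, 8.68, 9.61 and 6.41 in MM401, Mll1-deleted, 2i and untreated cells, and Gkn2, a secreted protein of the stomach lining, had 10.1, 0.365, 0.881 and 4.96. Melanocyte markers summed to 8.12, 12, 18.8 and 12.3 over 7 loci, with the pigment enzyme Tyr at 0.00457 in MM401 cells and listed at 0 in the other groups. Pmel, with the highest mean of them over the 4 groups, had 2.44, 5.25, 7.56 and 4.45.

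**Figure D5:**
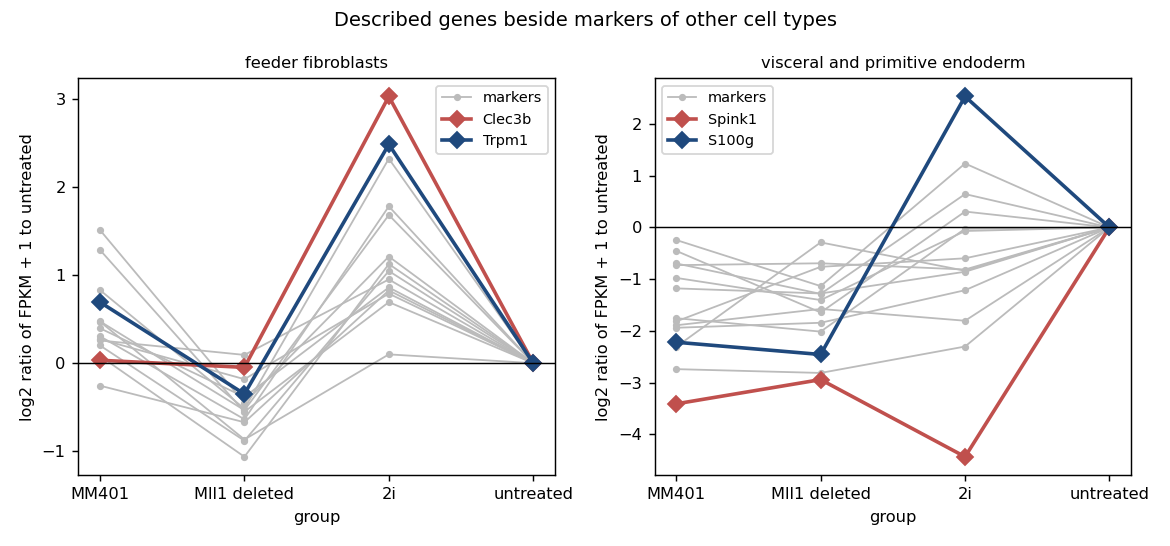
Log2 ratio of FPKM + 1 to untreated cells (vertical axes) for markers of feeder fibroblasts (left, grey, 12 loci) with Clec3b and Trpm1, and of visceral and primitive endoderm (right, grey, 12 loci) with Spink1 and S100g, in MM401, Mll1-deleted, 2i and untreated cells. Lines join groups only to show which points belong to 1 gene. Clec3b at 3.03 and Trpm1 at 2.49 stand above every fibroblast marker in 2i cells, and Spink1 stands below every endoderm marker in each treated group.

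The loci with the most similar pattern were found for each gene by the distance between log2 levels over the 4 groups, each centred on its own mean, among 11525 named loci with an FPKM of at least 5 and at least 100 estimated counts in some group. The distance is a description over 4 values and smaller means more alike. Closest to Trh was Lefty2, a Nodal antagonist, at 0.66 (2.08, 10.2, 59.1 and 57.1 FPKM in MM401, Mll1-deleted, 2i and untreated cells), then the amino acid transporter Slc7a3 at 1.10. Closest to Spink1 were AC130829.2 at 1.17 and Amot at 1.33, so no locus lay within 1. Closest to Pga5 was the locus of S100a3 and S100a4 at 0.65, then Srgn, one of the endoderm markers, at 0.71.

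Car14 had the most company, with 398 loci within a distance of 1 and Pim2, a kinase gene, at 0.25 and Gm26735 at 0.28 the closest. Closest to Car4 were the locus of Ampd3 at 0.52 and Gm27903 at 0.55. Closest to S100g were Saa3, a serum amyloid gene, at 1.03 and the Kis2 and Mir106a locus at 1.30. Closest to Aqp8 were the locus of Ly6a and Ly6c1 at 0.54 and C1qtnf2 at 0.54. Closest to Clec3b were C1qtnf3 at 0.76 and Lgals7 at 0.81. Closest to Trpm1 was Col1a1, one of the feeder fibroblast markers, at 0.25, then 1500015O10Rik at 0.25. Among the 9 genes themselves the closest pairs were Clec3b and Trpm1 at 0.90, Aqp8 and Trpm1 at 1.02, and Car4 and Car14 at 1.28.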

How the data were processed

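RNA from 8 libraries in 4 groups was read from 2 deposited tables of 61535 loci. Build mm10 and the tools deepTools, SAMtools 1.5 and TopHat2 2.1.1 are named in the submitters' processing notes, without roles. Per the file headers, each group's FPKM value comes with the authors' lower and upper limits, and the deposited estimated counts need not be whole. No label or header used here names the program that made the tables or says whether strand was used. Each group has 1 column, already combined by the authors, so no test between groups was possible. No column of another sample was present (0). Loci with no name (11475, between 0.324% and 0.405% of counts) were left out of comparisons, 1793 loci join several genes, and values with status HIDATA were treated as missing. Ratios are log2 of FPKM + 1, with a filter of 1 FPKM in either group and a 2-fold rule. Alternatives tried were a pseudocount of 0.1, no filter, centring on the median, estimated counts with a pseudocount of 10, and separate intervals. The genes named were taken from a rule that gives the 9 genes, the 2 loci most like each in pattern, the largest change past the rule (FPKM of at least 5) and the gene of each list with the highest mean, and Kmt2a. Some genes that the rule gives are not reported here. Ren1, Pcsk1, Car7, Car12, Calb2, Cpe, Pam, Trhr, Tyr, Cubn, Gkn2, S100a7a, S100a8, Apob, Ttr, Sox17, Mir211 and overlapping or neighbouring genes were named after their values were seen. So were Pou5f1, Tdgf1, Gata4, Gata6, Foxa2, Dab2 and Amn. The 9 genes and the 11 lists were chosen with earlier results of these data known. Sequences are from RefSeq (GRCm38.p6) and gene positions from GENCODE on mm10. The scripts were checked on simulated data and used Python 3.11.15, pandas 2.3.3, numpy 2.4.6 and matplotlib 3.10.9.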

Additional observations from a re-analysis of the deposited data

How the results depend on the processing

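For each of the 9 genes in each of the 6 comparisons, the call by the 2-fold rule was the same under a pseudocount of 0.1, no filter on low values, centring on the median, estimated counts with a pseudocount of 10, and values of status FAIL treated as missing, 270 results in all. No called ratio changed sign. With estimated counts, 4 ratios that passed the rule in neither direction did, to -0.21 for Car14 in MM401 over 2i cells, -0.15 for Car14 in MM401 over Mll1-deleted cells, -0.06 for Car14 in Mll1-deleted over 2i cells and 0.15 for Clec3b in Mll1-deleted over untreated cells. Treating status FAIL as missing was chosen after seeing the data. Where separate intervals were also required, the genes called numbered 5 of 6 for MM401, 6 of 7 for Mll1-deleted and 7 of 7 for 2i cells over untreated cells, 2 of 3 for MM401 over Mll1-deleted cells, 6 of 8 for MM401 over 2i cells and 8 of 8 for Mll1-deleted over 2i cells. The background moved more. With a pseudocount of 0.1, loci past the rule numbered 3436 in place of 2197 for MM401, 1772 in place of 1086 for Mll1-deleted and 1821 in place of 1136 for 2i cells over untreated cells, 2764 in place of 1758 for MM401 over Mll1-deleted cells and 2884 in place of 1808 for Mll1-deleted over 2i cells. With separate intervals required, they numbered 1413, 575, 620, 1078 and 1110 in the same comparisons. A smaller pseudocount widens the ratios of low loci, and the second rule can only remove loci.

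No paired analysis was possible because the tables hold 1 column per group, and leaving out each replicate in turn could not be run for the same reason. The values therefore carry no check between libraries, and the authors' interval is the only error used here. S100g in MM401 and Mll1-deleted cells, Trpm1 outside 2i cells and Spink1 in 2i cells rest on wide intervals or few counts. The counts of Car14 and S100g share their position with genes of the other strand.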

Other observations

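The genes beside the 9 described ones in the genome were mostly within 2-fold of their untreated level, as were most loci tested. Within 100 kb lay 38 other protein-coding loci, of which 33 were tested against untreated cells. In MM401 cells 2 were higher and 4 lower, where 7.03% of all loci tested were higher and 6.08% lower. In Mll1-deleted cells 0 were higher and 0 lower, where 3.02% of loci were higher and 3.66% lower. In 2i cells 1 was higher and 1 lower, where 2.92% of loci were higher and 4.16% lower. The median log2 ratios of these neighbours were -0.16, 0.00 and 0.21 in MM401, Mll1-deleted and 2i cells. The circadian repressor gene Ciart, near Car14, was lower in MM401 and higher in 2i cells, with 3.08 FPKM in MM401, 23.4 in 2i and 9.89 in untreated cells. Other neighbours of Car14 that passed the rule were BC028528, with 3.11 FPKM in MM401, 3.54 in 2i and 8.50 in untreated cells with overlapping intervals, and the histone chaperone gene Anp32e, with 102 FPKM in MM401 and 211 in untreated cells. Next to Aqp8, Zkscan2 had 3.57 FPKM in MM401 and 1.19 in untreated cells. Near Pga5, Tkfc had 23.9 FPKM in MM401 and 11.4 in untreated cells, and near Clec3b the locus that holds Tgm4 had 0.829 FPKM in MM401 and 2.72 in untreated cells, with overlapping intervals.

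Among the gastric markers, Gkn1, a secreted protein of the stomach lining, had 5.29 FPKM in MM401, 0.331 in Mll1-deleted, 0.693 in 2i and 2.13 in untreated cells, so the 2 MLL1 treatments stood on opposite sides of untreated cells, with log2 ratios of 1.00 and -1.24 and separate intervals in both.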
